A study of Mus musculus with 24 samples.

Results

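The flavin monooxygenase genes Fmo1, Fmo2, Fmo4 and Fmo5 were taken from the table of counts by their Ensembl identifiers, and these 4 genes of the 54532 in the table were followed across all 24 libraries. All 4 passed the filter on low counts, which left 15090 genes for testing. Other genes of the family were not analysed here. The mRNA came from livers of mice lacking the PAR bZip transcription factors Hlf, Dbp and Tef (Hlf-/-/Dbp-/-/Tef-/-, called knockout) and of mice proficient for all 3 (Hlf+/+/Dbp+/+/Tef+/+, called wild type). Mice of both genotypes were fed ad libitum (AL in the labels), were 12 to 16 weeks old, and were sampled at zeitgeber times ZT04, ZT08, ZT12, ZT16, ZT20 and ZT24, in hours after lights on. Each of the 12 groups had 2 libraries, which the labels distinguish by the letters I (replicate 1, set I) and P (replicate 2, set P). The labels do not give the sex of the mice in words, and do not say which exons were deleted. Whether the paired libraries of a group stem from different mice is not stated, so each p-value reflects the spread among these libraries, part of which may be technical.

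Flavin monooxygenases are enzymes of the endoplasmic reticulum that carry FAD. They take electrons from NADPH, hold activated oxygen on the flavin, and transfer it to nitrogen or sulfur atoms of drugs, dietary amines and sulfur compounds. Fmo1 encodes a form with broad substrate range that also oxidises hypotaurine to taurine, Fmo2 a form best known from lung, Fmo4 a form with few known substrates, and Fmo5 a form that, in humans, oxygenates ketones in a Baeyer-Villiger reaction rather than amines. The deleted factors Dbp, Tef and Hlf are rhythmic outputs of the circadian clock that bind DNA elements called D-boxes, and in liver they are known for acting on genes of xenobiotic metabolism.

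Coordinates are those of GENCODE M21 on GRCm38, the assembly that mm10 denotes. Fmo4 (ENSMUSG00000026692, chr1:162793188-162813972), Fmo1 (ENSMUSG00000040181, chr1:162829561-162866610) and Fmo2 (ENSMUSG00000040170, chr1:162874317-162898726) lie side by side on the minus strand of chromosome 1, and Fmo5 (ENSMUSG00000028088, chr3:97628804-97655282) lies on the plus strand of chromosome 3. No other annotated gene overlapped any of them. Their kinship can be read from the first 60 bases of each coding sequence, from the start codon, shown because the counts of related genes could be mixed where their sequences are identical. The 18 capitals mark the 6 codons of the glycine-rich motif that binds FAD.
Fmo1: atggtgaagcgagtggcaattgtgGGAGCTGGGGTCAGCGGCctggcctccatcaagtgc
Fmo2: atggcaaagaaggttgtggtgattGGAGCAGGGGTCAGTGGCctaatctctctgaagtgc
Fmo4: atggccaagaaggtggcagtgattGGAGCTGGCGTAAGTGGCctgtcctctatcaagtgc
Fmo5: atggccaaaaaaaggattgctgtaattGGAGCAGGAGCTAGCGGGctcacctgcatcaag
The longest coding sequences had 532 codons in Fmo1, 535 in Fmo2, 560 in Fmo4 and 533 in Fmo5. Between the 6 pairs of genes, 59.3% to 62.6% of aligned coding bases were identical. The longest stretch shared without a mismatch by any transcripts of 2 of the genes was 12 to 24 bases, the longest of them between Fmo1 and Fmo5.

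The stretch just upstream of the Fmo2 start is shown because this gene had the largest difference at ZT12 among the 4. It holds 250 bases of the minus strand at chr1:162898759-162899008 (RefSeq, GRCm38.p6).
Fmo2 upstream: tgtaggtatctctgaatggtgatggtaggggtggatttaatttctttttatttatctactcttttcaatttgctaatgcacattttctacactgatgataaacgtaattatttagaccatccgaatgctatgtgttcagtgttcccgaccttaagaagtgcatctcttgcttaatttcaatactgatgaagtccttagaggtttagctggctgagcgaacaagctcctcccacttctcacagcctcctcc
D-box letters were searched as TTACGTAA, TTATGTAA and, for the other strand, TTACATAA. Neither an exact match nor one with a single mismatch was found there or in the full 250 bases before the RefSeq starts of Fmo4 and Fmo5, the windows searched, so no base is in capitals. Of 32851 RefSeq windows of this length, 0.931% held an exact match and 15.7% a match with at most 1 mismatch. Fmo1 had no entry among the RefSeq windows, so it was not searched. The absence of these letters from the windows searched says nothing about whether the factors bind elsewhere.

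The libraries held 14613001 to 19288322 counts. In the knockout, Dbp had 0 to 0.114 CPM (counts scaled to a common library total with TMM factors), against 0.279 to 56.8 CPM in wild type. Tef had 3.54 to 30.1 CPM in the knockout and 42.4 to 330.2 CPM in wild type, and Hlf had 0.112 to 3.34 CPM in the knockout and 47.0 to 95.6 CPM in wild type. The group means of Dbp and Tef in wild type were highest at ZT08, and that of Hlf at ZT12. The 6 wild-type libraries of set I stood apart from the rest. Deviations were taken from each gene's median over all libraries, for genes above a minimum mean level. Across these genes, the deviations in wild-type set I correlated with GC content at r of 0.489 ± 0.180 (mean ± SD, n = 6). The values were -0.289 ± 0.100 in knockout set P, -0.048 ± 0.068 in knockout set I and -0.064 ± 0.132 in wild-type set P (n = 6 each). The 2 knockout libraries of a group differed by over 1.5-fold in 4.14% to 5.68% of genes, and the 2 wild-type libraries in 11.8% to 57.8%. Results are therefore also given without wild-type set I, a choice made after seeing the data.

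Averaged over the day, all 4 genes were lower in the knockout at an adjusted p under 0.05 (edgeR quasi-likelihood test, all genes tested together). Across all genes, 21.1% were called lower and 12.1% higher in this comparison, and the median change was -0.02 on the log2 scale. In bulk tissue, fewer cells of a type and less RNA per cell cannot be told apart.

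Fmo1 ranged over 209 to 468 CPM in the knockout (median 303.1) and over 269.8 to 578 CPM in wild type (median 384). Its mean was 299.6 ± 75.2 CPM in the knockout and 409 ± 104 CPM in wild type (SD over times and replicates, n = 12 each), a log2 change of -0.45 (SE 0.08, adjusted p = 0.00108). Fmo2 ranged over 3.54 to 25.5 CPM in the knockout (median 6.74) and over 3.78 to 79.7 CPM in wild type (median 11.2). It had the largest change of the 4, at -0.92 (SE 0.23, adjusted p = 0.00942), and also the fewest reads, 65 to 464 counts per knockout library and 62 to 1315 per wild-type library. Fmo4 ranged over 9.36 to 19.9 CPM in the knockout (median 12.8) and over 13.8 to 41.1 CPM in wild type (median 18.2), with a change of -0.58 (SE 0.11, adjusted p = 0.00193). For Fmo5 the range was 603 to 1551 CPM in the knockout (median 844) and 698 to 2181 CPM in wild type (median 1076), with a change of -0.35 (SE 0.09, adjusted p = 0.00994). The ranges over the day overlapped between the genotypes for all 4 genes, since each gene also varied with time.

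Without wild-type set I the changes were -0.33 for Fmo1 (adjusted p = 0.015), -1.20 for Fmo2 (adjusted p = 1.38e-05) and -0.42 for Fmo4 (adjusted p = 0.0213). Fmo5 then changed by -0.24 and missed the threshold (adjusted p = 0.0586). With set P alone, Fmo5 changed by -0.25 (adjusted p = 0.15). With set I alone, it changed by -0.45 (adjusted p = 0.147), and Fmo2 by -0.48 (adjusted p = 0.439). With each library's slope on GC content and transcript length removed, the changes of Fmo1 and Fmo5 grew by over 1.5 times, to -0.77 and -0.71. Fmo1 and Fmo4 thus passed the threshold in all 9 of these other treatments plotted, and Fmo2 in all but set I alone.

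**Figure D1:**
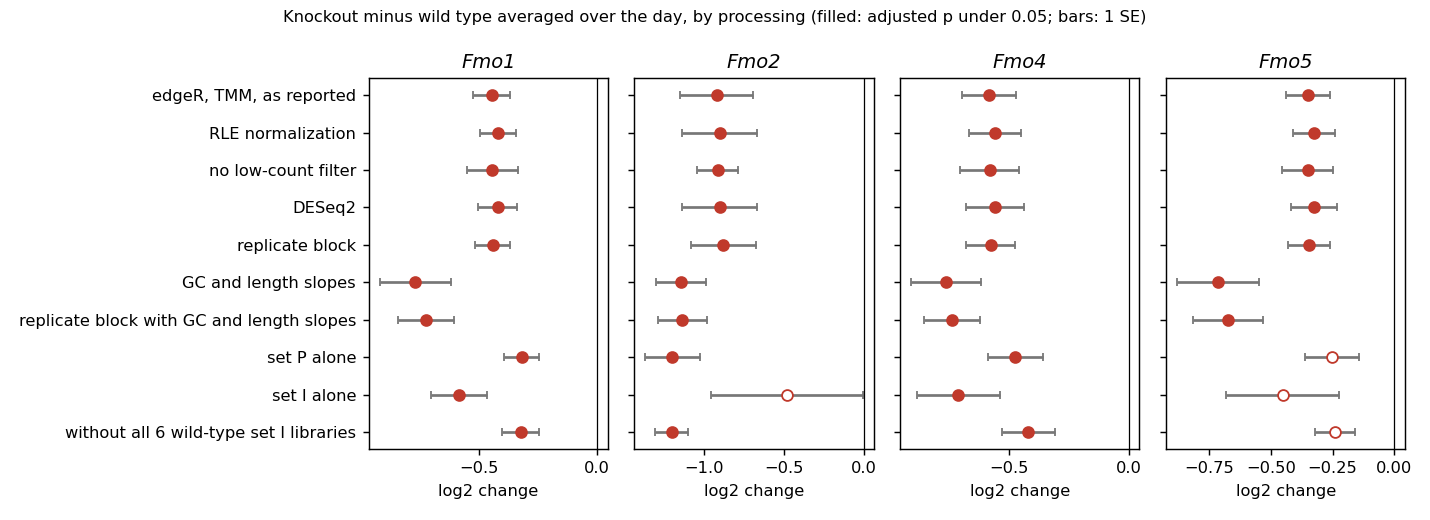
Log2 change averaged over the day, knockout minus wild type, for each gene (columns) under the reported processing and 9 others (down the page). Points are fitted changes, bars 1 SE, and filled points have an adjusted p under 0.05; every point lies below 0, and the open points are Fmo2 in set I alone and Fmo5 in 3 treatments.

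At single times, Fmo2 and Fmo4 were called lower in the knockout at ZT12, and no other test of the 4 genes at a single time passed the threshold. Across all genes, the share called lower was 0.696% at ZT04, 0.603% at ZT08, 1.15% at ZT12, 1.01% at ZT16, 2.47% at ZT20 and 0.384% at ZT24. Fmo1 had both knockout libraries below both wild-type libraries at 6 of 6 times, a pattern seen in 3.04% of all genes. Fmo4 and Fmo5 did so at 5 of 6 times, as 4.96% of all genes did, and Fmo2 at 3 of 6 times, as 11.6% did. These counts and shares are of CPM and depend on the scaling. With counts scaled per length (TPM, described below), the genotypes also overlapped for Fmo1 at ZT16, Fmo4 at ZT04 and ZT20, and Fmo5 at ZT04 and ZT08.

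Fmo2 at ZT12 had 13.4 and 12.6 CPM in the knockout libraries, against 79.7 and 55.4 CPM in the wild-type libraries. Both knockout libraries lay far below both wild-type libraries, and the mean was 5.21-fold lower. In 26% of all genes both knockout libraries lay below both wild-type libraries at ZT12. The log2 change was -2.38 (SE 0.57, adjusted p = 0.0466, edgeR). At ZT16, Fmo2 had 25.5 and 18.2 CPM in the knockout libraries, against 11.2 and 39.0 CPM in the wild-type libraries. The groups overlapped there, with the wild-type set I library lowest and the wild-type set P library highest, and the change was -0.20 (SE 0.55, adjusted p = 0.823). The difference within set I at ZT16 was 1.18 on the log2 scale and within set P -1.09, so the 2 sets went opposite ways. They did so again at ZT20, with 0.72 in set I and -0.59 in set P, while both were lower in the knockout at ZT12, by -2.57 in set I and -2.13 in set P. The ZT12 call was close to the threshold: it was lost on leaving out any of 18 of the 24 libraries in turn (adjusted p of 0.0531 to 0.354 in those 18 fits) and with RLE scaling (adjusted p = 0.0547). It held with DESeq2 (adjusted p = 0.00255) and without wild-type set I (change of -2.09, adjusted p = 0.000409), where Fmo2 was also called lower at ZT08 (change of -1.38, adjusted p = 0.0207).

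Fmo4 at ZT12 had 16.9 and 13.1 CPM in the knockout libraries, against 41.1 and 27.6 CPM in the wild-type libraries. Both knockout libraries lay below both wild-type libraries, as they did in 26% of all genes at ZT12. The mean was 2.29-fold lower, with a log2 change of -1.20 (SE 0.28, adjusted p = 0.0367, edgeR). At ZT16 it had 19.9 and 12.8 CPM in the knockout libraries, against 20.3 and 19.4 CPM in the wild-type libraries. The knockout set I library reached the level of the wild-type libraries there, and the change was -0.28 (SE 0.27, adjusted p = 0.52). Without that library it was -0.63, and without the other knockout library 0.032. The ZT12 call was lost without wild-type set I (change of -0.88, adjusted p = 0.129). It was also lost on leaving out the wild-type ZT12 library of set I alone (-0.89), either knockout ZT12 library or the wild-type ZT24 library of set P.

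Fmo1 at ZT12 had 358 and 321 CPM in the knockout libraries, against 578 and 451 CPM in the wild-type libraries. At ZT16 it had 468 and 342.5 CPM in the knockout libraries, against 532 and 520 CPM in the wild-type libraries. In CPM the groups did not overlap at either time, and both knockout libraries also lay below both wild-type libraries in 26% of all genes at ZT12 and 29% at ZT16. In TPM the Fmo1 groups overlapped at ZT16, with 205 and 150 in the knockout and 187 and 207 in wild type. The ratio of knockout to wild-type means was much the same through the day, between 0.66 at ZT12 and 0.773 at ZT08. No single time passed the threshold for Fmo1, with log2 changes of -0.60 at ZT12 (SE 0.19, adjusted p = 0.167) and -0.38 at ZT16 (SE 0.19, adjusted p = 0.306). The ZT16 change was -0.61 without the knockout library of set I and -0.14 without that of set P.

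Fmo5 at ZT12 had 1551 and 1335 CPM in the knockout libraries, against 1134 and 1205 CPM in the wild-type libraries. Here both knockout libraries lay above both wild-type libraries, as they did in 22.4% of all genes at this time. In CPM, 0.0596% of all genes had this together with both knockout libraries below at the other 5 times, a pattern noticed in these data. With counts scaled per length (TPM, described below), the Fmo5 libraries overlapped at ZT04 and ZT08, so the pattern depends on the scaling. The log2 change at ZT12 was 0.30 (SE 0.22, adjusted p = 0.698). At ZT08 the gap was narrow, with a change of -0.08 (SE 0.22). The knockout libraries had 816 and 769 CPM there, against 846 and 831 CPM in the wild-type libraries. At ZT16 Fmo5 had 1312 and 1151 CPM in the knockout libraries, against 2181 and 2114 CPM in the wild-type libraries. Both wild-type libraries were then far above both knockout libraries, with a mean 1.74-fold lower in the knockout. In 29% of all genes both wild-type libraries lay above both knockout libraries at ZT16. The Fmo5 change of -0.80 (SE 0.22) missed the threshold with edgeR (adjusted p = 0.0855). With DESeq2 it passed (change of -0.78, adjusted p = 0.0269). At ZT20 the values were 865 and 1268 CPM in the knockout libraries, against 2170 and 1463 CPM in the wild-type libraries, and the change was -0.77 (SE 0.22, adjusted p = 0.0573). With the letter of the libraries as a block, the ZT20 change was -0.75 and passed (adjusted p = 0.0329), as it did with DESeq2 (-0.73, adjusted p = 0.0251), with no low-count filter (-0.79, adjusted p = 0.0255) and with the block and slopes on GC content and length (-1.45, adjusted p = 0.0297). Without wild-type set I it was -0.46 (adjusted p = 0.222).

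**Figure D2:**
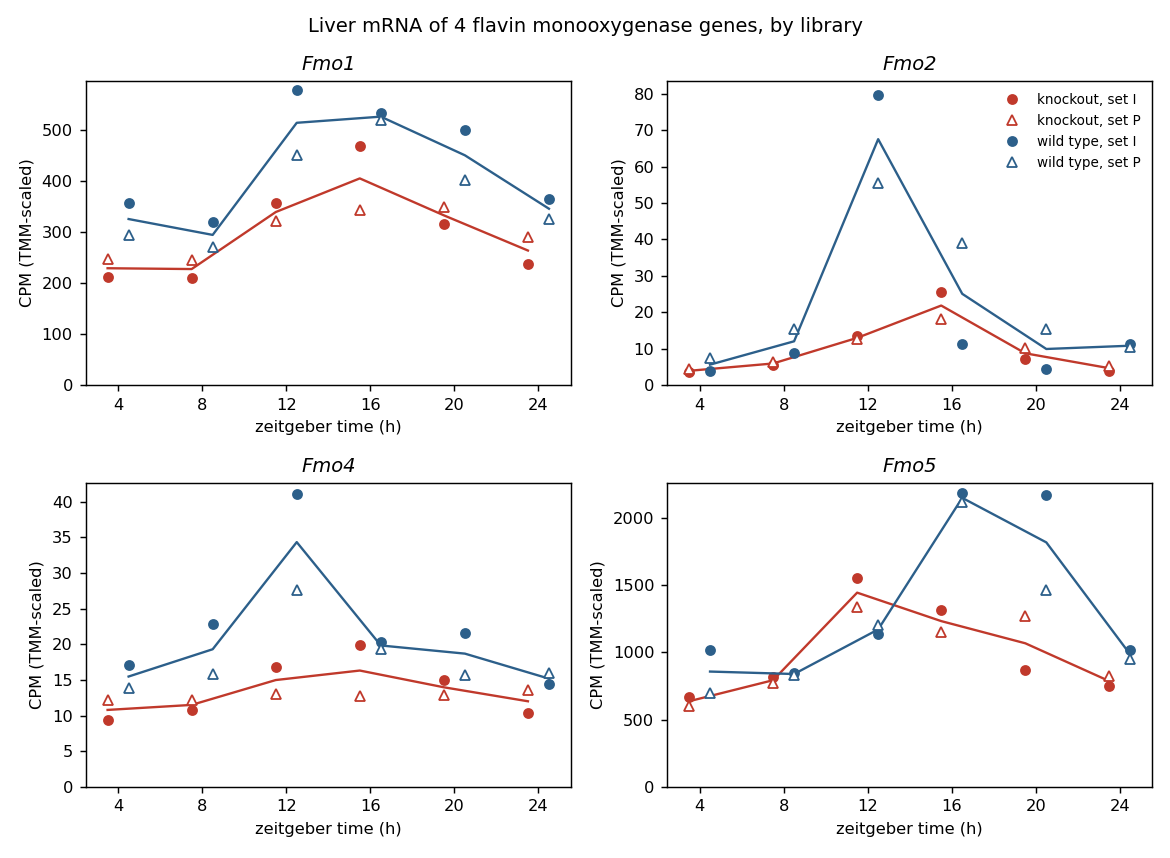
CPM of each gene by zeitgeber time in knockout (red, left of each time) and wild-type (blue, right) libraries; filled circles are set I, open triangles set P, and lines join the group means. Fmo2 and Fmo4 reach their wild-type maximum at ZT12 with both knockout libraries well below, and Fmo5 at ZT12 is the only place where both knockout libraries lie above both wild-type libraries.

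**Figure D3:**
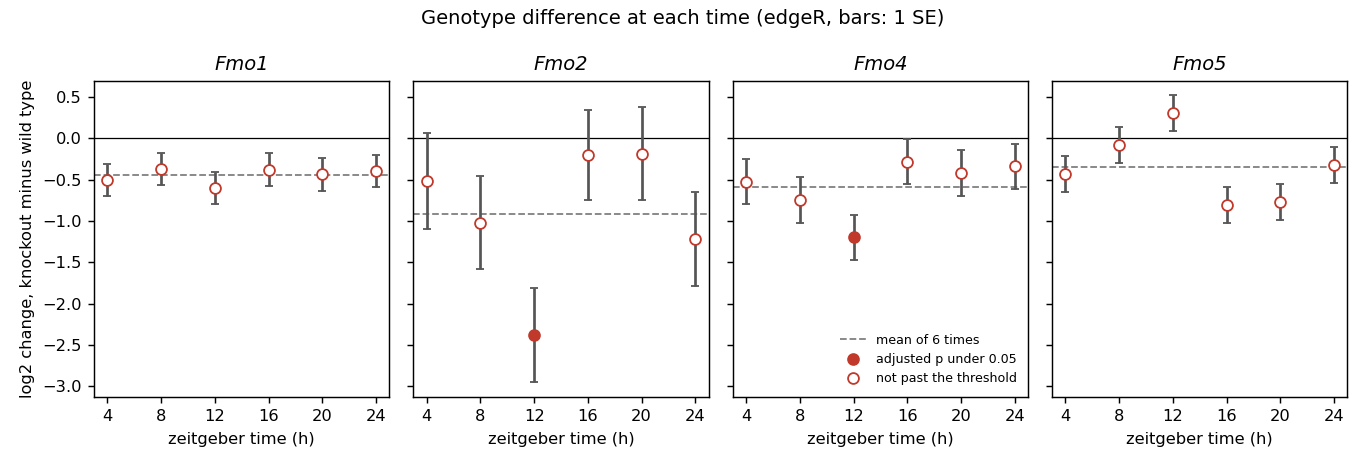
Fitted log2 change, knockout minus wild type, at each zeitgeber time, with bars of 1 SE; filled points have an adjusted p under 0.05 and the dashed line is the mean of the 6 times. Fmo1 stays near its mean of -0.45, Fmo2 reaches -2.38 at ZT12, and Fmo5 lies at 0.30 at ZT12 and -0.80 at ZT16.

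Whether the genotype difference varied over the day was tested directly as an interaction of genotype and time. In edgeR 0 of 15090 genes (0%) passed at an adjusted p under 0.05, while 966 had an unadjusted p under 0.05 and DESeq2 called 129. Fmo5 had an unadjusted p of 0.0207 (adjusted p = 0.669), Fmo2 an adjusted p of 0.876, Fmo4 of 0.943 and Fmo1 of 0.998. The Fmo2 interaction passed only when no filter on low counts was applied (adjusted p = 0.000162), and none of the other alternatives gave an adjusted p under 0.05 for any of the 4 genes. The genotype difference at ZT12 and ZT16 set against that at the other 4 times gave 0 calls in edgeR (0%), with 690 genes at an unadjusted p under 0.05, 15 called by DESeq2 and 110 by edgeR with no low-count filter. For the 4 genes this contrast lay between -0.55 for Fmo2 (SE 0.48) and 0.15 for Fmo5 (SE 0.19), with an adjusted p of 0.9999 for each. For Fmo1, Fmo2 and Fmo5 its sign rested on single libraries or sets. On leaving out 1 library Fmo2 ranged from -0.88 to 0.052 (without wild-type ZT16 of set I and of set P) and Fmo1 from -0.19 to 0.044. Fmo5 turned to -0.035 without wild-type set I. Fmo4 stayed negative, from -0.42 to -0.088 on leaving out 1 library. The differences in timing between Fmo2, Fmo4 and Fmo5 are thus a description of 2 libraries per group, and a change of the genotype difference over the day was not shown for any of the 4 genes.

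**Figure D4:**
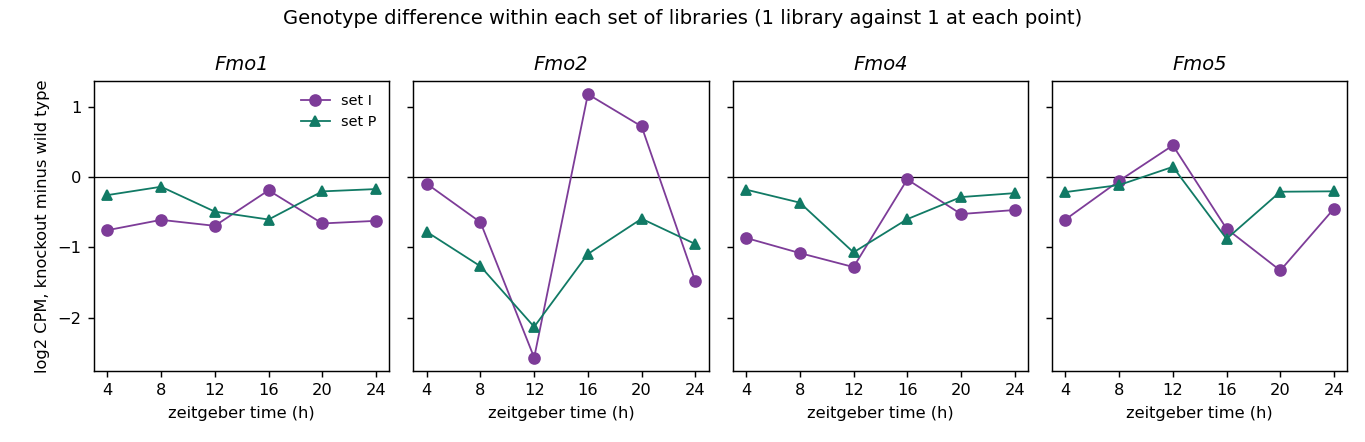
Log2 difference in CPM, knockout minus wild type, within set I (purple circles) and set P (green triangles), 1 library against 1 at each zeitgeber time. Fmo1 and Fmo4 are below 0 in both sets at every time, Fmo5 is above 0 at ZT12 in both sets, and Fmo2 goes opposite ways in the 2 sets at ZT16 and ZT20.

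Daily rhythms were tested with a 24 h cosine and sine for each genotype. In the knockout, Fmo1, Fmo2 and Fmo5 passed the threshold, where 3.57% of all genes did. In wild type all 4 genes passed, where 8.67% of all genes did. The amplitude given below is the rise of the fitted curve from its mean to its peak, in log2 units.

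Fmo1 had nearly the same curve in both genotypes, with an amplitude of 0.43 and a peak at ZT16.5 in the knockout (adjusted p = 0.00817, edgeR) and 0.43 and ZT16.0 in wild type (adjusted p = 0.00579). Its highest group mean was 1.78 times its lowest in the knockout and 1.79 times in wild type. Fmo2 had the widest swing of the 4 genes in either genotype, with an amplitude of 1.21 and a peak at ZT15.2 in the knockout (adjusted p = 0.0327) and 1.42 and ZT13.5 in wild type (adjusted p = 0.00345). Its means spanned 3.92 CPM at ZT04 to 21.9 CPM at ZT16 in the knockout, a 5.58-fold range, and 5.62 CPM at ZT04 to 67.5 CPM at ZT12 in wild type, a 12.0-fold range. The knockout rhythm of Fmo2 fell short of the threshold on leaving out any of 10 of the 24 libraries (amplitudes of 1.08 to 1.27 over all 24).

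Fmo4 did not pass in the knockout, with an amplitude of 0.30 and a fitted peak at ZT15.9 (adjusted p = 0.339, edgeR), and passed in wild type, with 0.49 and ZT12.8 (adjusted p = 0.0202). The wild-type call was lost without the ZT12 library of set I (amplitude 0.34, adjusted p = 0.102) and without all of wild-type set I (0.39, adjusted p = 0.155). Fmo5 had an amplitude of 0.56 and a peak at ZT15.1 in the knockout (adjusted p = 0.00439) and 0.72 and ZT17.4 in wild type (adjusted p = 0.000206). Its highest knockout mean was 1443 CPM, at ZT12, and its highest wild-type mean 2148 CPM, at ZT16. The knockout mean at ZT12 was above that at ZT16 (1232 CPM) with no overlap of their libraries, and in wild type the ZT16 and ZT20 libraries overlapped while those of ZT12 lay below both.

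Without wild-type set I, the other rhythm calls of the 4 genes held, with knockout amplitudes of 0.43 for Fmo1, 1.23 for Fmo2 and 0.56 for Fmo5 and wild-type amplitudes of 0.46, 1.41 and 0.75 for the same genes. With slopes on GC content and transcript length removed, the knockout rhythms of Fmo1 (amplitude 0.43, adjusted p = 0.185) and Fmo5 (0.56, adjusted p = 0.145) no longer passed.

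The rhythm difference itself passed for none of the 4 genes. In edgeR 0 genes of 15090 (0%) were called, with 791 at an unadjusted p under 0.05 and 28 called by DESeq2. With no low-count filter, edgeR called 72. Fmo5 had the smallest p of the 4, at 0.0248 unadjusted and 0.881 adjusted, with an amplitude smaller by 0.16 in the knockout (the difference, knockout minus wild type, was -0.16). Fmo2 and Fmo4 had differences in amplitude of -0.21 and -0.19 (adjusted p = 0.982 for both), and Fmo1 of 0.00 (adjusted p = 0.984).

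**Figure D5:**
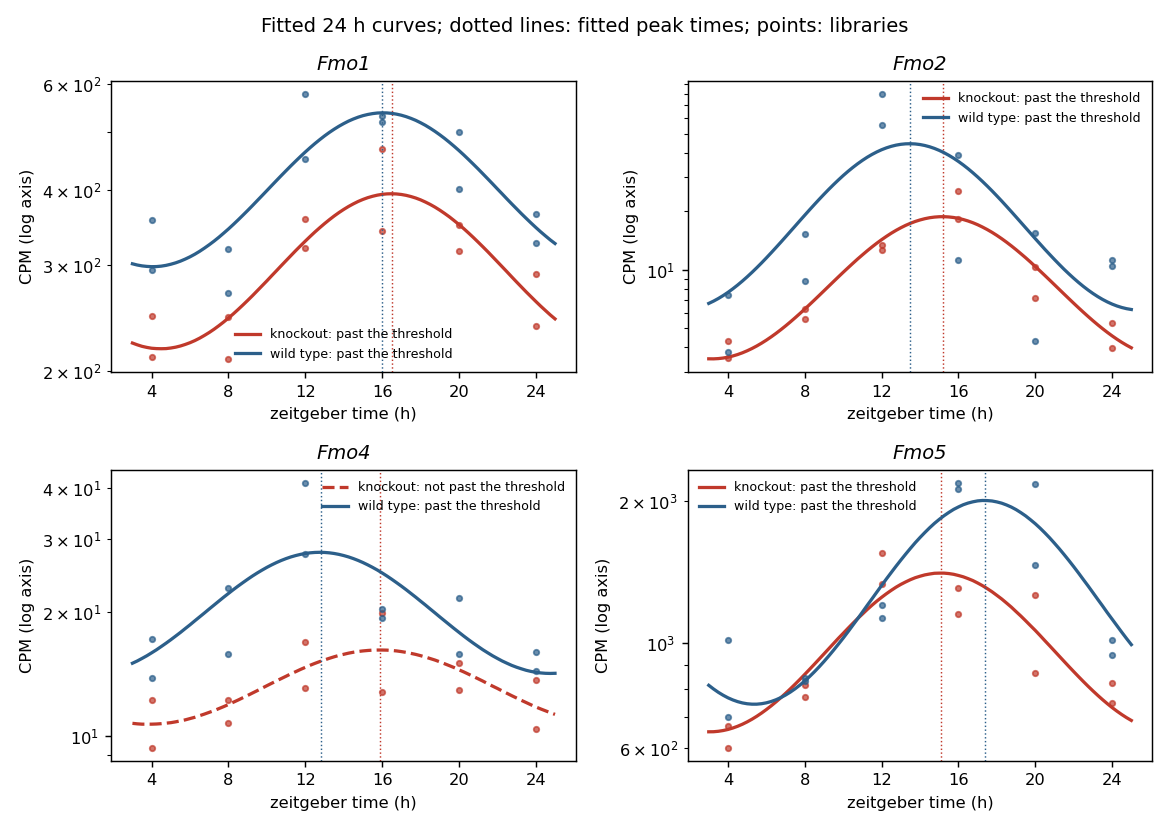
Fitted 24 h curves in CPM (log axis) by zeitgeber time for knockout (red) and wild type (blue), with libraries as points and fitted peak times as dotted lines; a dashed curve did not pass the threshold. The curves of Fmo1 run parallel with peaks at ZT16.5 in the knockout and ZT16.0 in wild type, and those of Fmo5 cross, with peaks at ZT15.1 and ZT17.4. The fitted Fmo5 curve of the knockout is above that of wild type at ZT08 (860 against 833 CPM) and below it at ZT12 (1251 against 1325 CPM). The libraries lie the other way round at both times, so the crossing does not reproduce their order at ZT12.

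Per length, in TPM (counts divided by the union of exons and scaled to a common total), the order of the levels was the same in both genotypes. Fmo5 was highest, with 481 ± 145 TPM in the knockout and 551 ± 203 TPM in wild type (SD, n = 12 each). Fmo1 followed, with 131 ± 32.1 TPM in the knockout and 158 ± 35.3 TPM in wild type, and its range did not reach that of Fmo5. Fmo4 had 9.88 ± 2.18 TPM in the knockout and 13.5 ± 4.99 TPM in wild type. Fmo2 was lowest on average, with 4.75 ± 3.29 TPM in the knockout and 9.68 ± 10.4 TPM in wild type. The ranges of Fmo2 and Fmo4 overlapped in both genotypes. In the knockout they were 1.795 to 12.6 TPM for Fmo2 and 7.19 to 14.8 TPM for Fmo4, and in wild type 1.51 to 34.6 TPM for Fmo2 and 9.07 to 26.99 TPM for Fmo4. The order was the same with the length of the longest transcript.

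The 4 genes were compared with each other and with all other genes by Pearson r of log2 CPM over the 12 group means, which share libraries and vary with both genotype and time. These values are descriptions. Among the 4 genes, r was highest between Fmo2 and Fmo4 (0.879), followed by Fmo1 and Fmo5 (0.854), and lowest between Fmo4 and Fmo5 (0.525). Acot4, an acyl-CoA thioesterase of peroxisomes, was the gene most like both Fmo2 (r = 0.936) and Fmo4 (r = 0.949). It had 35.6 CPM in the knockout and 67.2 CPM in wild type (means, n = 12 each), a log2 change of -0.87 (adjusted p = 4.14e-05, edgeR). Next for Fmo2 were Cipc, a partner of the clock protein CLOCK (r = 0.914), and Agmo, which cleaves ether lipids (r = 0.909). For Fmo4 they were Fitm2, a lipid droplet protein (r = 0.945), and Ctif, a translation factor (r = 0.926). Those most like Fmo1 were Hspa8, a constitutive chaperone (r = 0.96), Cycs, which encodes cytochrome c (r = 0.944), and Alpl, an alkaline phosphatase (r = 0.934). For Fmo5 they were Klhl25 (r = 0.941), Inmt, which methylates indole amines (r = 0.931), and Cnn3 (r = 0.924).

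Genes that supply or share the cofactors of these enzymes moved in both directions over the day. Of 4 genes of riboflavin and FAD supply tested, 0 rose and 1 fell (median log2 change -0.26), the FAD synthase gene Flad1, with 37.5 CPM in the knockout and 49.8 CPM in wild type (-0.40, adjusted p = 0.0142, edgeR). Of 10 genes of NADPH supply, 2 rose and 3 fell (median -0.13). Me1, the cytosolic malic enzyme, rose (0.61, adjusted p = 0.0034). Aldh1l1, a folate enzyme that makes NADPH (-0.65, adjusted p = 0.00105), the NAD kinase gene Nadk (-0.53, adjusted p = 0.00285) and the folate enzyme gene Mthfd1 (-0.34, adjusted p = 0.0155) fell. Of 17 tested genes for other flavoprotein oxidases and reductases, 4 rose and 3 fell (median -0.10). Aox3 and Aox1, aldehyde oxidases, rose (1.15, adjusted p = 0.00212, and 0.69, adjusted p = 4.64e-05). Por, which feeds electrons from NADPH to cytochromes P450, had 288 CPM in the knockout and 525 CPM in wild type and fell (-0.80, adjusted p = 0.000415), as did Dmgdh, a dimethylglycine dehydrogenase (-0.70, adjusted p = 2.85e-06). Over all genes 12.1% rose and 21.1% fell, and the median was -0.02. With set P alone, 0 of 3 tested genes of riboflavin and FAD supply rose and 0 fell. Of the 10 NADPH supply genes 2 then rose and 2 fell, and of the 17 other flavoprotein genes 4 rose and 2 fell. In that fit 1013 of all 15091 genes tested rose and 955 fell.

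Sulfur amino acid and taurine metabolism, whose compounds include the Fmo1 substrate hypotaurine, had 17 tested genes. Of these 1 rose and 11 fell, with a median log2 change of -0.35, against 21.1% lower among all genes. The smallest p values among the falls were those of Mat1a, which makes S-adenosylmethionine (-0.72, adjusted p = 0.000879, edgeR), the sulfide oxidase gene Sqor (-0.52, adjusted p = 0.00262), the sulfite oxidase gene Suox (-0.66, adjusted p = 0.00272) and the methyltransferase gene Bhmt2 (-0.37, adjusted p = 0.00564). Csad, the decarboxylase that makes hypotaurine, was the 1 gene that rose, with 228 CPM in the knockout and 184 CPM in wild type (0.40, adjusted p = 0.0478), and is named after its value was seen. With set P alone, 1 of the 17 rose and 4 fell, where 1013 of all 15091 genes tested rose and 955 fell.

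Of 16 genes for liver transcription factors and xenobiotic receptors, 2 rose and 5 fell (median -0.16). Nr1i3, the constitutive androstane receptor, had 27.7 CPM in the knockout and 54.4 CPM in wild type (-0.97, adjusted p = 3.79e-05, edgeR). The liver factor genes Foxa3 (-0.69, adjusted p = 0.000458) and Hnf4a (-0.35, adjusted p = 0.00476) also fell, and the aryl hydrocarbon receptor gene Ahr rose (0.68, adjusted p = 0.0112). Genes that differ between the sexes in mouse liver were included because hepatic flavin monooxygenases are known to do so. Of 10 tested female-biased genes 4 rose and 2 fell (median 0.03), among them Acot3 (-2.52, adjusted p = 2.34e-05) and Acot4, which fell, and Atp6v0d2 (0.98, adjusted p = 0.00908) and Sult3a1 (2.17, adjusted p = 0.019), which rose. Sult3a1 lay near the floor, with means of 0.44 CPM in the knockout and 0.24 CPM in wild type and at most 24 counts. A mean under 1 CPM was seen in 4 of these 10 genes. Of 14 male-biased genes 3 rose and 2 fell (median 0.44), among them Selenbp2 (3.02, adjusted p = 8.65e-09), Mup20 (1.23, adjusted p = 0.0217) and Moxd1 (4.11, adjusted p = 0.0239), which rose, and Cyp2d9 (-0.69, adjusted p = 0.00116), which fell. Over all genes 12.1% rose and 21.1% fell. With set P alone, 1 of the 16 transcription factor and receptor genes rose and 2 fell. With the same set, 1 of the female-biased genes rose and 2 fell, and 5 of the male-biased genes rose and 3 fell. In that fit 1013 of all 15091 genes tested rose and 955 fell.

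Of 10 markers of hepatocytes, the main cells of the tissue, 0 rose and 5 fell (Alb, Apoa1, Ttr, Tat and Hnf4a, named after their values were seen), with a median of -0.35, where 21.1% of all genes fell. The other 5 did not pass, among them Cps1 with a change of 0.02 and Fgb with -0.10. Their summed level was 45280 to 69370 CPM in the knockout and 71880 to 99370 CPM in wild type, ranges that did not overlap, and Alb made up most of it. None of the 10 was at 0. With set P alone 0 of them rose and 3 fell, where 1013 of all 15091 genes tested rose and 955 fell. The part of these markers in the results for the 4 genes was not tested. Markers of other cells were present at lower levels, and their counts stand beside 12.1% of all genes that rose and 21.1% that fell. Of 11 Kupffer cell and macrophage markers 3 rose and 0 fell, of 10 endothelial markers 1 rose and 0 fell, and of 10 stellate cell and fibroblast markers 1 rose and 2 fell. Of 6 cholangiocyte markers tested 1 rose and 1 fell, and of 6 red blood cell markers 1 rose and 0 fell. Of 5 smooth muscle markers 0 rose and 1 fell, of 8 lymphocyte markers 0 rose and 3 fell, and of 3 adipocyte markers tested 0 rose and 0 fell. A mean under 1 CPM was seen in all 8 lymphocyte, 3 smooth muscle, 2 cholangiocyte, 2 adipocyte and 1 red blood cell markers. With set P alone, 2 Kupffer cell, 1 endothelial, 1 stellate cell and 1 red blood cell markers rose, and 0 of these lists fell. In that fit 1 lymphocyte marker fell and 0 rose, and 0 cholangiocyte, smooth muscle or adipocyte markers rose or fell. The summed levels of these 8 lists overlapped between the genotypes, from the Kupffer cell list (571 to 852 CPM in the knockout, 528 to 998 CPM in wild type) to the lymphocyte list (1.57 to 8.35 CPM in the knockout, 3.82 to 10.8 CPM in wild type).

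The genes called around the 2 loci moved in both directions. Within 500 kb of the group on chromosome 1, Mettl13, a lysine methyltransferase gene, fell (-0.59, adjusted p = 0.00159, edgeR), while Prrc2c (0.40, adjusted p = 0.0245) and the homeobox gene Prrx1 (0.69, adjusted p = 0.0256) rose. Around Fmo5 on chromosome 3, the acid phosphatase gene Acp6 fell (-0.35, adjusted p = 0.00904) and Pde4dip rose (0.17, adjusted p = 0.0311). Prkab2, the next tested gene downstream of Fmo5, had a change of -0.004 (SE 0.09, adjusted p = 0.975). These neighbours were chosen by position, leaving out other flavin monooxygenase genes, and those named were chosen after their values were seen. The tested neighbours not named did not pass. Over all genes, 21.1% were called lower and 12.1% higher.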

How the data were processed

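The deposited table gives unnormalized read counts by Ensembl gene, with a column for each of the 24 libraries, prepared with a TruSeq Stranded mRNA kit per the labels. The submitters' processing notes name STAR 2.4.0i and mm10. The annotation, the counting tool and its strand setting were not given in the sources used here.

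Here, library sizes were scaled with TMM, genes were filtered with filterByExpr by group (minimum count 10), and 15090 genes were tested with the quasi-likelihood F-test of edgeR 4.0.16 (R 4.3.3), with Benjamini-Hochberg adjustment over all of them and calls at an adjusted p under 0.05. One fit of 12 group means over the 24 libraries gave the genotype contrasts and the interaction, and a fit with a 24 h cosine and sine per genotype gave the rhythms. The script was tested on simulated data. CPM and TPM were computed from the counts, and symbols, lengths and GC content came from GENCODE M21. DESeq2 1.42.0 was an alternative.

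The genes, gene lists and tests were chosen with earlier results of these data known. Named are the 4 genes, up to 4 called genes per list with the smallest p, and the 3 genes most like each; some genes that rules name are not reported here. Across genes, libraries of the same letter and time deviated together in the 2 genotypes (r of 0.125 to 0.319 at the 6 times, all over 0.1), which is where the pairing of sets I and P comes from; a block for the letter is given where it changes a call. Lists were described by counts and medians, without a test. PCR duplicates cannot be told from independent molecules, and depth gave 62 counts or more per library for each of the 4 genes.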

Additional observations from a re-analysis of the deposited data

Results flagged for a closer look

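Fmo5 was higher in the knockout at ZT12 and lower at the other 5 times, by little at ZT08 (log2 change of -0.08, SE 0.22). No single time passed the threshold for Fmo5 in edgeR. At ZT12 both knockout libraries lay above both wild-type libraries, with a log2 change of 0.30 (0.303, knockout minus wild type), and at ZT16 both lay below, with a change of -0.80. Of all genes tested, 9 (0.0596%) had both knockout libraries above both wild-type libraries at ZT12 and below at the other 5 times. That count and the Fmo5 pattern hold for TMM-scaled CPM. In TPM the Fmo5 libraries overlapped at ZT04 (335 and 293 in the knockout, 402 and 299 in wild type). They also overlapped in TPM at ZT08 (418 and 366 in the knockout, 376 and 412 in wild type). The pattern was noticed in these data. The difference between times was tested as an interaction and did not pass (unadjusted p = 0.0207, adjusted p = 0.669 in edgeR, and an adjusted p of 0.132 to 0.937 on leaving out each library in turn).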

How the results depend on the processing

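The averaged change of all 4 genes was negative in all 132 alternative values computed, and the calls held in all 24 fits without 1 library (highest adjusted p 0.0213 for Fmo5 and 0.027 for Fmo2, edgeR). Of 308 further values for the 4 genes under alternatives other than leaving out 1 library, 288 kept their direction and side of the threshold, 10 newly passed, 9 no longer passed and 1 changed sign; the cause was not tested. That one was Fmo5 at ZT12 and ZT16 against the other times, at -0.035 without wild-type set I. Newly past the threshold were Fmo5 at ZT16 (DESeq2, no filter) and ZT20 (DESeq2, no filter, block, block with slopes), Fmo2 at ZT08 (-1.38 without wild-type set I), at ZT24 (-1.19, no filter) and in the interaction (no filter), and Fmo1 at ZT20 (-1.06, block with slopes). Fmo2 averaged over the day missed the threshold with set I alone (-0.48), and Fmo5 with set I alone (-0.45), with set P alone (-0.25) and without wild-type set I (-0.24). At ZT12, Fmo2 missed it with RLE scaling (-2.36), and Fmo4 with GC and length slopes removed (-1.27) and without wild-type set I (-0.88). Among rhythms, Fmo4 in wild type missed it with GC and length slopes removed (amplitude 0.48) and without wild-type set I (0.39), and in the knockout Fmo1 and Fmo5 with GC and length slopes removed, without the block (0.43 and 0.557) and with it (0.41 and 0.556). Without 1 library each, Fmo2 at ZT12 ranged from -2.59 to -2.11, Fmo4 at ZT12 from -1.42 to -0.89, the Fmo4 wild-type amplitude from 0.34 to 0.54 and the Fmo2 knockout amplitude from 1.08 to 1.27. Some of these fits newly passed for Fmo5 at ZT20 (-1.04 to -0.465 over all 24), Fmo5 at ZT16 (-0.89 to -0.68) and Fmo1 at ZT20 (-0.54 to -0.28). Values that missed the threshold throughout but changed sign in such fits were Fmo2 at ZT04 (-0.93 to 0.12), ZT16 (-0.84 to 1.01) and ZT20 (-0.84 to 1.06), Fmo4 at ZT16 (-0.63 to 0.032), and, for ZT12 and ZT16 against the other times, Fmo1 (-0.19 to 0.044) and Fmo2 (-0.88 to 0.052). The averaged comparison called 5007 genes, 63.5% of them lower; this was 7898 with the replicate block (52% lower), 6132 with the block and GC and length slopes (46.2%), 2894 without wild-type set I (47.2%), 1968 with set P alone (48.5%), and 3315 to 9130 without 1 library. At ZT20, 593 genes were called, against 2871 with the block, 1298 with the block and slopes, 1236 with DESeq2, 3130 with no low-count filter, 345 without wild-type set I, and 50 (without knockout ZT20 of set I) to 8129 (without wild-type ZT20 of set P) on leaving out 1 library. Such fits called 41 to 398 genes at ZT04, 44 to 196 at ZT08, 84 to 395 at ZT12, 62 to 561 at ZT16 and 38 to 129 at ZT24. With no filter, counts were 1079 at ZT04 (190 with it), 416 at ZT08 (141), 632 at ZT12 (279), 1533 at ZT16 (249) and 343 at ZT24 (102), and 639 for the interaction. DESeq2 gave 349 at ZT04, 214 at ZT08, 430 at ZT16 and 169 at ZT24, and 995 knockout rhythms (538 in edgeR). Without wild-type set I, 755 wild-type rhythms (1308 with it) and 2714 knockout rhythms were called. The block moved the ZT04 count to 370 (190 without it) and the ZT16 count to 469 (249), called Fmo5 at ZT20 (-0.75) and changed no other call of the 4 genes. Depth limits Fmo2 most: its lowest library held 62 counts.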
